A study of Mus musculus with 9 samples.

Results

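Trpv2, Trpv3, Trpm2 and Asic3 encode cation channels that respond to physical and chemical signals of tissue state, and they were followed here as a set of 4 among the 12275 genes of the data. Members were taken by gene symbol through their Ensembl identifiers, and they were selected on the signal measured in these same mice, with the differences of AV and AP from BA mice already known. Those differences between groups are therefore given as a description, without a p-value. Of the 4 genes, 3 were analysed in BA against AV mice and 4 in BA against AP mice, because Trpv2 was not analysed here in the first comparison.

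All mice carried the B6.Cg-Tg(Thy1-YFP)HJrs/J transgene, in which the Thy1 promoter drives yellow fluorescent protein in pyramidal neurons of the amygdala, the hippocampus and cortical layer 5, and in some other neurons. A conflict task, run a month before death, sorted them by spontaneous behaviour into balancing (BA, 3 mice), avoiding (AV, 2 mice used) and approaching (AP, 3 mice). The labels used here give no age, and another AV mouse was removed by the authors as an outlier. Each library held RNA of YFP-positive cells sorted from the amygdala of a single mouse, so the replicates are separate animals. The authors deposited a normalized signal per gene in 2 tables, BA with AV and the same BA mice with AP, which were scaled separately. There were 9872 genes in the BA vs AV table and 11820 genes in the BA vs AP table. Every mouse of the latter had 2 as its lowest value, and 1 read added between 0.708 and 1.23 to it. A value of 2 therefore stands for no read, and 3 reads for 4.13 to 5.68 depending on the mouse. The BA vs AV table had no such steps, its depth is unknown, and the highest of these levels, 5.68, was borrowed there as the level of 3 reads. Such limits cover counting error only.

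Transient receptor potential (TRP) channels are tetramers that let calcium and sodium into the cell. TRPV2 and TRPV3 belong to the vanilloid subfamily, TRPV3 being best known from skin keratinocytes as a warmth-activated channel and TRPV2 as a channel of immune cells and neurons activated by noxious heat or membrane stretch. TRPM2, of the melastatin subfamily, opens on binding of ADP-ribose and calcium, reports oxidative stress, and is prominent in microglia and other phagocytes. ASIC3 is not a TRP channel but a proton-gated sodium channel, a trimer of the family that also holds the epithelial sodium channel, and it is best known from sensory neurons, where it responds to tissue acidification. Mediators of inflammation such as bradykinin, prostaglandins and histamine act on several of these channels through their own receptors.

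The genes lie at 4 loci (GRCm38). Asic3 (ENSMUSG00000038276.12) covers chr5:24413392-24417835 on the plus strand, with 2423 bases of exon in 9 blocks. Trpm2 (ENSMUSG00000009292.18) covers chr10:77907722-77970563 on the minus strand and is the longest of the 4, with 12459 bases of exon in 36 blocks, of which 2 small nucleolar RNA models share 44 and 47 bases. Trpv2 (ENSMUSG00000018507.16, chr11:62574486-62600515, plus strand) has 4485 bases of exon in 14 blocks. Trpv3 (ENSMUSG00000043029.2, chr11:73267388-73300363, plus strand) has 5835 bases in 18 blocks, and lies 6145 bases from Trpv1, the capsaicin receptor gene, which was not analysed here.

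The DNA just upstream of each start site is shown because the genes differ there in base composition. Sequences are the RefSeq promoter windows (GRCm38.p6) of up to 250 bases before the start, cut back where a GENCODE exon began, and for Trpv2 the first of 3 start sites. They are written 5′ to 3′ on the strand of the gene. Capitals mark matches on either strand to 1 of 5 motifs searched: the TATA box (TATAAA), the CCAAT box (CCAAT), the GC box (GGGCGG), the E-box (CANNTG) and an AP-1-like site (TGANTCA).
Asic3 (chr5:24413201-24413391, plus strand, 191 bases): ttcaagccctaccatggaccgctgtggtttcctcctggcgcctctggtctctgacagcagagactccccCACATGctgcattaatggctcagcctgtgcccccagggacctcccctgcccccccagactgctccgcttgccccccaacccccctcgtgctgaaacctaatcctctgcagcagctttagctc
Trpv3 (chr11:73267270-73267387, plus strand, 118 bases): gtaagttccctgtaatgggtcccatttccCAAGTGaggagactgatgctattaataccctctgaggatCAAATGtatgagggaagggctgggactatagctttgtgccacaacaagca
Trpm2 (chr10:77969873-77970122, minus strand, 250 bases): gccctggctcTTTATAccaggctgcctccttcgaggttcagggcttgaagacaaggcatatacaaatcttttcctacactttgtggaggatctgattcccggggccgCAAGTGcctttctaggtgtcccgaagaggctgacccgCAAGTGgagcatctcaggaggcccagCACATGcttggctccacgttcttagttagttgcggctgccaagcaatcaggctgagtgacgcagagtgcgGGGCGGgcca
Trpv2 (chr11:62574236-62574485, plus strand, 250 bases): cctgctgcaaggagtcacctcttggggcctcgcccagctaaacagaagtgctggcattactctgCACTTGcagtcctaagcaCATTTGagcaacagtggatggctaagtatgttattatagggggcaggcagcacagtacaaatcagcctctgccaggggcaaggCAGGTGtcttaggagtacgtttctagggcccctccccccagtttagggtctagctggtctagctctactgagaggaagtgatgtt

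The Asic3 window was GC-rich, at 62.3% against a median of 51.3% over all 32851 windows cut to that length, while the Trpv3 window had 46.6% GC, against 50.8%, and no CpG, where the median window had 2. The Trpm2 window, which lies inside the GENCODE gene model at a start site given by RefSeq, held 10 CpG, where the median was 6. The Trpv2 window held 53.2% GC, near its median of 52.4%. The Trpm2 window alone among the 4 held a TATA box letter match, found in 12.4% of all windows of its length, and a GC box match, found in 32.7%. All 4 held an E-box match, 3 in Trpm2, 3 in Trpv2, 2 in Trpv3 and 1 in Asic3, and 66.2%, 66.2%, 41.3% and 57.5% of windows of the same lengths held at least 1. None of the 4 matched the CCAAT or the AP-1-like letters. These are matches of letters and not measured binding sites.

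Levels of the channels in BA mice were compared after division by exon length. In the BA vs AP table the 4 genes sat close together, with a signal above the floor of 2 per kb of exon of 8.49 ± 3.74 for Trpv2, 8.12 ± 1.94 for Trpv3, 7.15 ± 0.970 for Asic3 and 7.10 ± 0.636 for Trpm2 (SD, n = 3). The ranges of all 4 overlapped over the BA mice, so their order was not resolved. They stood at percentiles 15.6, 14.9, 13.0 and 13.0 of all genes with a length, whose median was 30.3. In the BA vs AV table, where no floor was subtracted, the same mice had a whole signal per kb of exon of 6.85, 6.62 and 5.74 for Trpv3, Asic3 and Trpm2, at percentiles 11.1, 10.8 and 8.98, again with overlapping ranges. Among the related channels of the BA vs AP table, Trpm7, a channel with a kinase domain, was at 103 per kb, and the polycystin gene Pkd2 and the lysosomal channel gene Mcoln1 were at 48.9 and 43.7. Below the 4 genes came Trpv4, Pkd2l2, Asic2 and Trpm4, at 3.18 to 1.51 per kb.

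**Figure D1:**
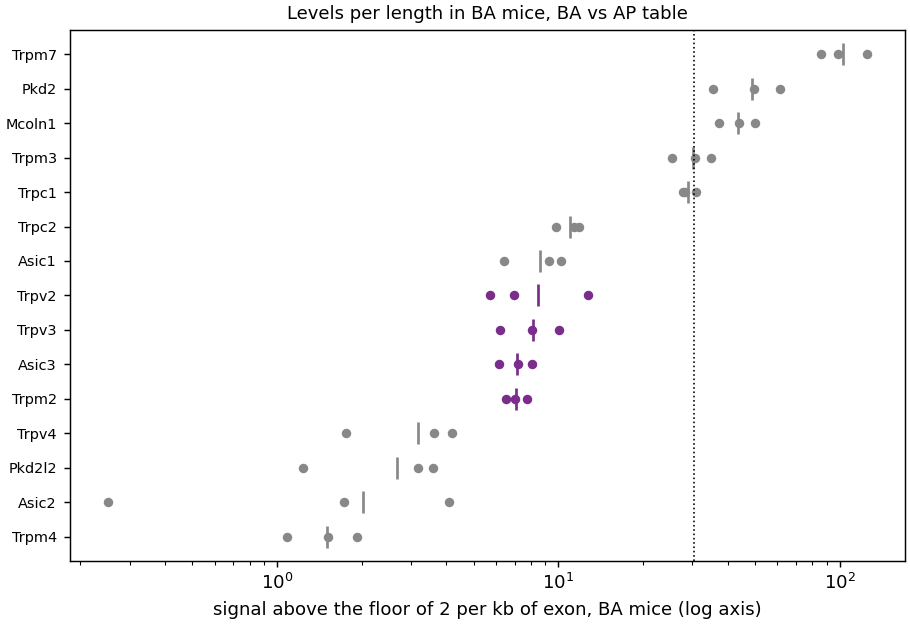
Signal above the floor of 2 per kb of exon (log axis) of each TRP and acid-sensing channel gene in the BA vs AP table; points are the 3 BA mice, the short bar is their mean, purple marks Trpv2, Trpv3, Asic3 and Trpm2, and the dotted line is the median of all genes, 30.3. The 4 genes lie between 7.10 and 8.49, with overlapping points, below Trpm7 at 103 and above Trpm4 at 1.51.

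Before the comparisons, the sorted material was checked against marker genes. Of 11 pyramidal neuron markers, Camk2a was analysed here in both tables, and the other 10 were not. Its signal in BA mice was 55.3 to 77.3 in the BA vs AV table, where 7 oligodendrocyte markers summed to between 187302 and 232350. Camk2a was 1656 and 2965 in the AV mice, and 77.0, 843 and 1401 in AP replicates 1, 2 and 3. The label of pyramidal neurons could thus be checked by this marker alone, and in BA mice it lay far below the oligodendrocyte sum, which is not divided by length, so the data at hand go against the label there. In the AV mice the oligodendrocyte sum was 53387 and 82160, and 6 astrocyte markers summed to 30629 and 59756 against 9564 to 15229 in BA. The 3 of 12 microglia and macrophage markers in that table summed to 722 and 939 against 237 to 354. In the comparison with AP mice, 11 of these 12 markers summed to between 4694 and 7772 in AP and between 1712 and 4002 in BA mice. There the oligodendrocyte sums overlapped, at 223452 to 276191 in AP and 220762 to 282637 in BA, and AP replicate 1 stood apart from the other AP mice in Camk2a and in the astrocyte sum (9657 against 29644 and 52584). In RNA of a whole sort, fewer cells of a type and less RNA per cell cannot be told apart. The part of these shifts in the channel genes' differences was not tested.

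In BA against AV mice, which asks how the avoiding trait differs from balanced behaviour, Trpv3 and Asic3 were several times lower in both AV mice and Trpm2 was higher in both. Trpv3 was 28.7, 42.5 and 48.7 in BA replicates 1, 2 and 3, and 5.51 and 6.21 in AV replicates 1 and 3. Both AV mice lay far below the lowest BA mouse. AV replicate 1 was under the borrowed level of 3 reads, 5.68, and AV replicate 3 was just above that level. The depth is unknown here, so how many reads these values stand for, if any, cannot be said. The group means were 39.9 ± 10.2 (SD, n = 3) and 5.86 ± 0.492 (SD, n = 2). The log2 fold change of AV over BA was −2.55 (SE 0.28) on the log2(value + 1) scale, which understates changes of low genes.

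Asic3 was 14.3, 15.1 and 18.8 in the BA mice and 4.003 and 2.198 in the AV mice. The groups did not overlap, and both AV values lay under the borrowed level of 3 reads. How many reads they stand for, if any, cannot be said. With means of 16.0 ± 2.42 and 3.10 ± 1.28, the log2 fold change was −2.08 (SE 0.28). The BA mean of Asic3 was 2.83 times the borrowed level.

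Trpm2 moved the other way. It was 77.2, 54.6 and 82.8 in the BA mice and 167 and 190 in the AV mice, with each AV mouse above every BA mouse. The means were 71.5 ± 14.9 and 179 ± 16.3, a log2 fold change of 1.33 (SE 0.26). Among all genes of an AV mouse, Trpm2 stood above 53.5% or 57.2% of them, and in BA mice above 25.7% to 34.8%. The whole signal per kb of exon, with no floor subtracted, was 13.4 and 15.3 for Trpm2 in AV mice, and 0.945 and 1.06 for Trpv3.

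All 3 genes passed limma's adjusted threshold of 0.05 in this comparison, where 29.7% of genes did so (13.6% higher and 16.2% lower in AV), and all 3 had groups that did not overlap, as 58.9% of genes did. The members were chosen with such results known, so nothing is read from these counts. Without any 1 mouse, the log2 fold change stayed between −2.76 and −2.39 for Trpv3, between −2.41 and −1.76 for Asic3 and between 1.15 and 1.45 for Trpm2. Trpv3 and Asic3 were low in the mice with the low oligodendrocyte sums, and Trpm2 was high in those with the high microglial and astrocyte sums, which in this comparison are the same 2 AV mice. Camk2a was higher in them as well, by 4.64 and 5.48 on the log2 scale, and the endothelial and mural sum was lower, by 0.63 and 0.51. With all these shifts in the same mice, they cannot be told apart here.

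**Figure D2:**
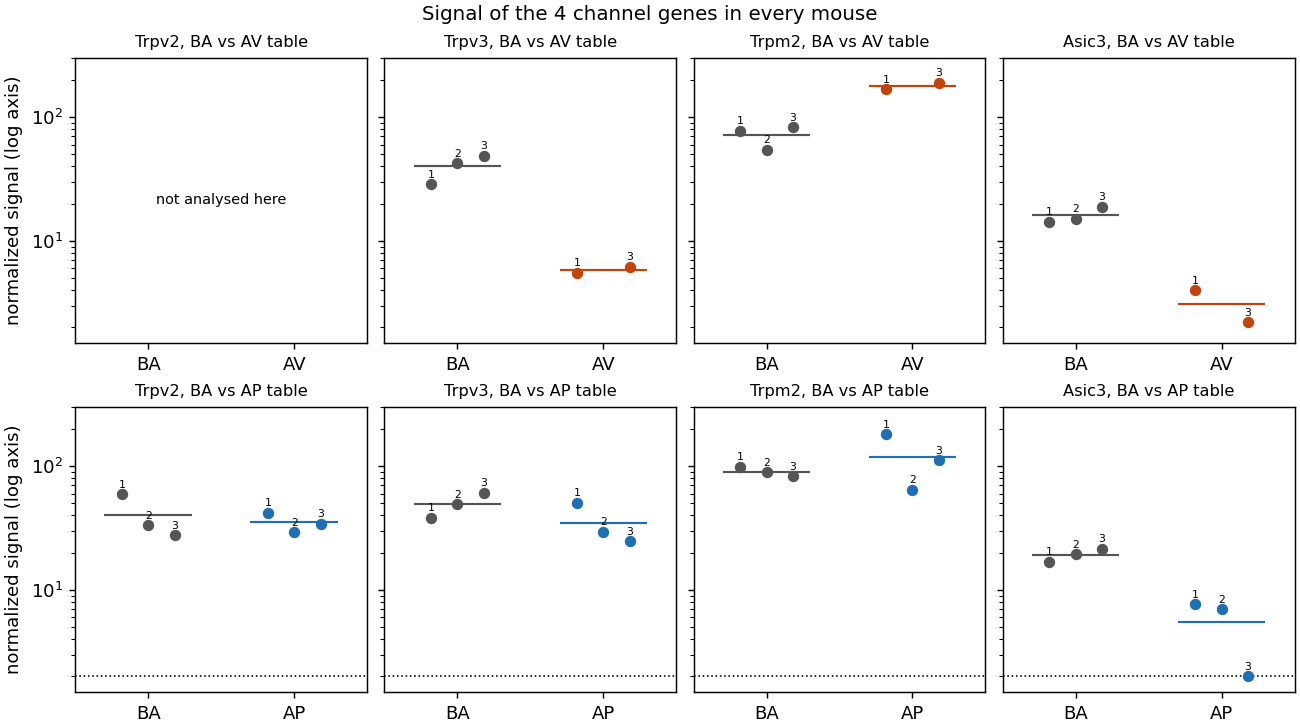
Normalized signal (log axis) of Trpv2, Trpv3, Trpm2 and Asic3 in each mouse, with the BA vs AV table above and the BA vs AP table below; numbers are replicates, horizontal bars are group means, and the dotted line is the floor of 2. In the upper row AV mice lie at 5.51 and 6.21 for Trpv3 against 28.7 to 48.7 in BA, and in the lower row Asic3 reaches the floor in AP replicate 3.

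In BA against AP mice, the corresponding question for the approaching trait, Asic3 was lower in every AP mouse, while Trpv2, Trpv3 and Trpm2 had overlapping groups. Asic3 was 16.9, 19.4 and 21.6 in BA replicates 1, 2 and 3, and 7.68, 6.96 and 2 in AP replicates 1, 2 and 3. These are 14, 17 and 16 reads in BA mice against 5, 7 and 0 in AP mice, so that AP replicate 3 sat on the floor, below its level of 3 reads at 5.24. The means were 19.3 ± 2.35 and 5.55 ± 3.09 (SD, n = 3 each), with a log2 fold change of −1.77 (SE 0.40), and without any 1 mouse it stayed between −2.05 and −1.28. Subtracting the floor of 2 before the logarithm gave −2.42. The oligodendrocyte sums of these groups overlapped, while the microglial sums, like Asic3, did not.

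Trpv3 was 38.2, 49.1 and 60.8 in the BA mice and 50.9, 29.6 and 24.7 in the AP mice, or 34, 46 and 48 reads against 43, 39 and 21. AP replicate 1 lay within the BA range and AP replicates 2 and 3 below it. The means of 49.4 ± 11.3 and 35.1 ± 13.9 gave a log2 fold change of −0.52 (SE 0.32), with a range of −0.82 to −0.31 when each mouse was left out.

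Trpm2 was 98.8, 89.5 and 83.1 in the BA mice and 182, 64.3 and 112 in the AP mice. AP replicate 1 was the highest and AP replicate 2 the lowest of the 6 mice, and the spread within AP (119 ± 59.0) was several times that within BA (90.5 ± 7.93). The log2 fold change was 0.28 (SE 0.36), and it turned to −0.087 without AP replicate 1 and rose to 0.65 without AP replicate 2. AP replicate 1 is the mouse whose Camk2a and astrocyte signals stayed near or below the BA level. Microglial sums were 5509, 4694 and 7772 in AP replicates 1, 2 and 3, above the 1712 to 4002 of the BA mice. Trpm2 lay above every BA mouse in AP replicates 1 and 3 but below every BA mouse in AP replicate 2. It thus did not follow the microglial sum in every AP mouse, and a link between them was not tested.

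Trpv2 was 59.2, 33.3 and 27.7 in the BA mice and 42.1, 29.2 and 34.1 in the AP mice. All AP values lay within the BA range, which was set by BA replicate 1. The means of 40.1 ± 16.8 and 35.2 ± 6.52 gave a log2 fold change of −0.12 (SE 0.31), which became 0.19 without BA replicate 1. None of the 4 genes passed limma's adjusted threshold, where 0.00846% of genes, a single gene, did. At an unadjusted limma p under 0.05 the count was 1 of the 4, Asic3, against 7.77% of all genes, and the same gene alone had groups without overlap, against 12.1%. The 4 genes were chosen with such results known, so nothing is read from these counts either.

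The BA mice are shared by both comparisons, so the results are placed side by side without a test of one against the other. Whether both tables were batch corrected is not stated, and steps of 1 read were seen in the BA vs AP table alone. The effect of this on the differences was not tested. The log2 fold changes against BA were −2.55 in AV and −0.52 in AP for Trpv3, −2.08 and −1.77 for Asic3, and 1.33 and 0.28 for Trpm2. The same BA libraries also have different values in the 2 tables. In the BA vs AP table Trpv3 was 1.16 to 1.33 times its value in the BA vs AV table, Asic3 1.15 to 1.29 times and Trpm2 1.004 to 1.64 times, beside a median ratio of 1.18 over the 9417 genes in both. Trpv3 and Asic3 kept the order of the 3 BA mice between tables, as 75.0% of genes did. Trpm2 did not, since BA replicate 3 was its highest BA mouse in one table and its lowest in the other.

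**Figure D3:**
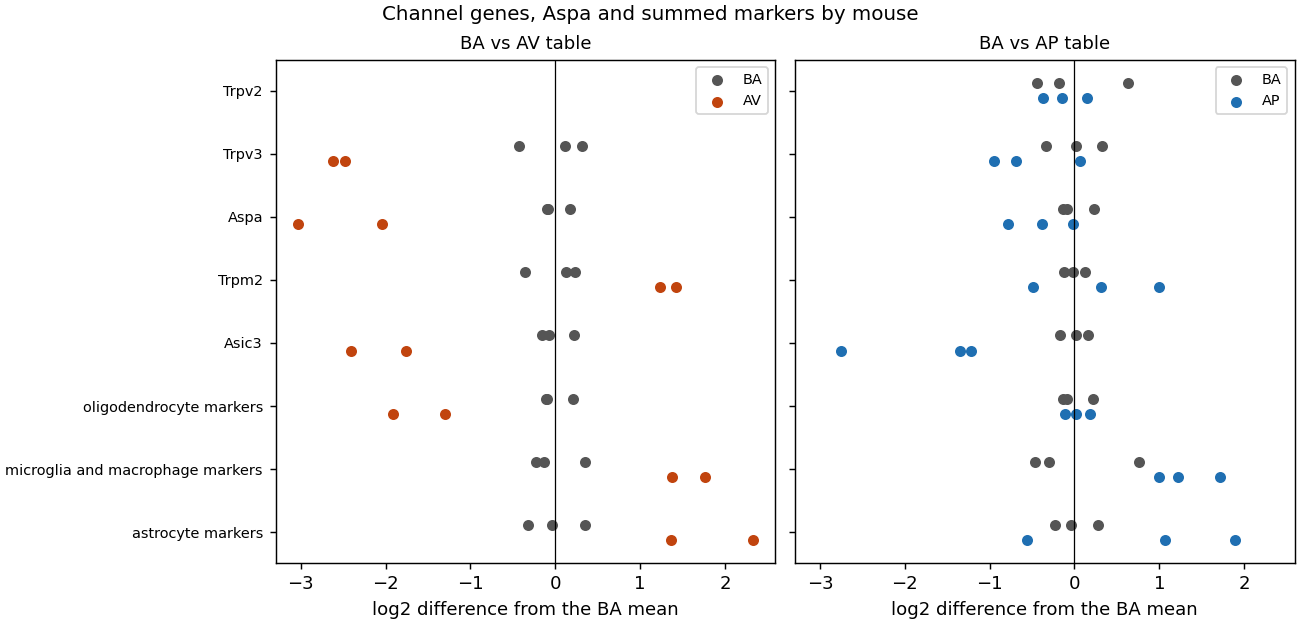
Log2 difference of each mouse from the BA mean (x axis) for Trpv2, Trpv3, Trpm2, Asic3, the oligodendrocyte gene Aspa and the summed signal of 3 marker lists, in the BA vs AV table (left) and the BA vs AP table (right). On the left Trpv3, Aspa, Asic3 and the oligodendrocyte sum lie below the BA mice in AV and Trpm2, microglial and astrocyte sums above; on the right the oligodendrocyte sums of AP and BA overlap while Asic3 is lower in every AP mouse. Camk2a and the remaining marker lists are not drawn.

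Neighbouring genes gave a local reference. Aspa, 4628 bases from Trpv3 on the opposite strand, encodes aspartoacylase, an enzyme of oligodendrocytes. It was 1957, 1975 and 2367 in BA and 255 and 505 in AV mice, and fell by 2.54 on the log2 scale (SE 0.33, limma adjusted p = 0.00397), next to −2.55 for Trpv3. In AP mice its log2 fold change was −0.39 (limma adjusted p = 0.721), with overlapping groups, next to −0.52 for Trpv3. Libraries were stranded, and the exons of Trpv3 share no base with another gene model. A link between the differences of Trpv3 and Aspa was not tested. Next to Asic3, Abcb8, a mitochondrial transporter gene, had log2 fold changes of −0.34 in AV and −0.42 in AP mice, and Cdk5, a neuronal kinase gene 405 bases away on the opposite strand, of −0.46 in AP mice. Neither passed the threshold. Lrrc3 and 1810043G02Rik beside Trpm2 had 0.68 and 0.73 in AV mice, and Ubb, a ubiquitin gene beside Trpv2, had 0.30 in AP mice, again without passing it.

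The wider family was examined through 32 other genes, 25 of TRP channels and 7 of acid-sensing and epithelial sodium channels. Of these, 8 were analysed in BA against AV and 11 in BA against AP, 6 of them in both. In AV mice 5 of 8 changed at a limma adjusted p under 0.05, 4 lower and 1 higher, beside 29.7% of all genes. The 8 genes had a median log2 fold change of −0.77, against −0.026 over all genes. The single increase was Asic1, the main acid-sensing subunit of central neurons, at 49.1, 44.4 and 34.2 in BA and 104 and 133 in AV mice, and rose by 1.46 on the log2 scale (SE 0.26, limma adjusted p = 0.00804). Asic1 and Asic3, of the same family, differed in opposite directions in AV mice. Mcoln1, the lysosomal mucolipin channel gene, was 338, 269 and 240 in BA and 85.6 and 133 in AV mice, and fell by 1.38 on the log2 scale (limma adjusted p = 0.0136). Trpm7 fell from 955, 812 and 1202 to 616 and 440, by 0.91 on the log2 scale, with a limma adjusted p of 0.0467 close to the threshold. Groups of these 3 genes did not overlap, as for 7 of the 8 family genes and 58.9% of all genes.

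The other decreases rest on weaker ground. Trpm1, a channel gene of retinal bipolar cells, was 12.2, 8.63 and 11.5 in BA and 3.52 and 4.37 in AV mice, and fell by 1.24 on the log2 scale (limma adjusted p = 0.0115), with both AV values under the borrowed level of 3 reads. Its BA mean was 1.90 times that level. Trpc2, at 34.7, 30.1 and 29.7 against 4.52 and 7.57, fell by 2.24 on the log2 scale (limma adjusted p = 0.00328), but 2803 of its 2874 exon bases also belong to the Xntrpc model on the same strand, so its reads are uncertain, and AV replicate 1 lay under the borrowed level of 3 reads. Trpc1, Trpm3 and Asic4 did not pass, with log2 fold changes of −0.63, 0.23 and 0.73. Without BA replicate 1 or BA replicate 2, 3 of the 8 genes passed, Asic1, Trpc2 and Trpm1. All calls then fell from 2934 to 1593 and 1521 of 9872 genes, respectively.

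In AP mice none of the 11 passed the adjusted threshold, beside 0.00846% of all genes, and 2 had an unadjusted limma p under 0.05, Asic2 and Trpv4, beside 7.77% of all genes. Asic2, which forms channels with other acid-sensing subunits, was 3.07, 19.4 and 9.36 in BA and 20.2, 36.0 and 40.9 in AP mice. The AP mice all lay above the BA mice, although BA replicate 2 lay just under the lowest of them, and the log2 fold change was 1.75 (SE 0.55, limma adjusted p = 0.462). Trpv4, a channel gene of glia and endothelium opened by cell swelling, differed by 0.86 on the log2 scale (limma adjusted p = 0.586) with overlapping groups. Trpc2 was 36.1, 30.3 and 34.7 in BA and 2, 10.9 and 37.7 in AP mice, so that AP replicate 1 had no read and AP replicate 3 exceeded every BA mouse. Its difference was −1.63 on the log2 scale (SE 0.76, limma adjusted p = 0.668). For Asic1, higher in AV mice, the value in AP mice was −0.42 on the log2 scale, with overlapping groups, and Pkd2 and Trpm4 differed by −0.25 and 0.13 with overlapping groups as well.

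**Figure D4:**
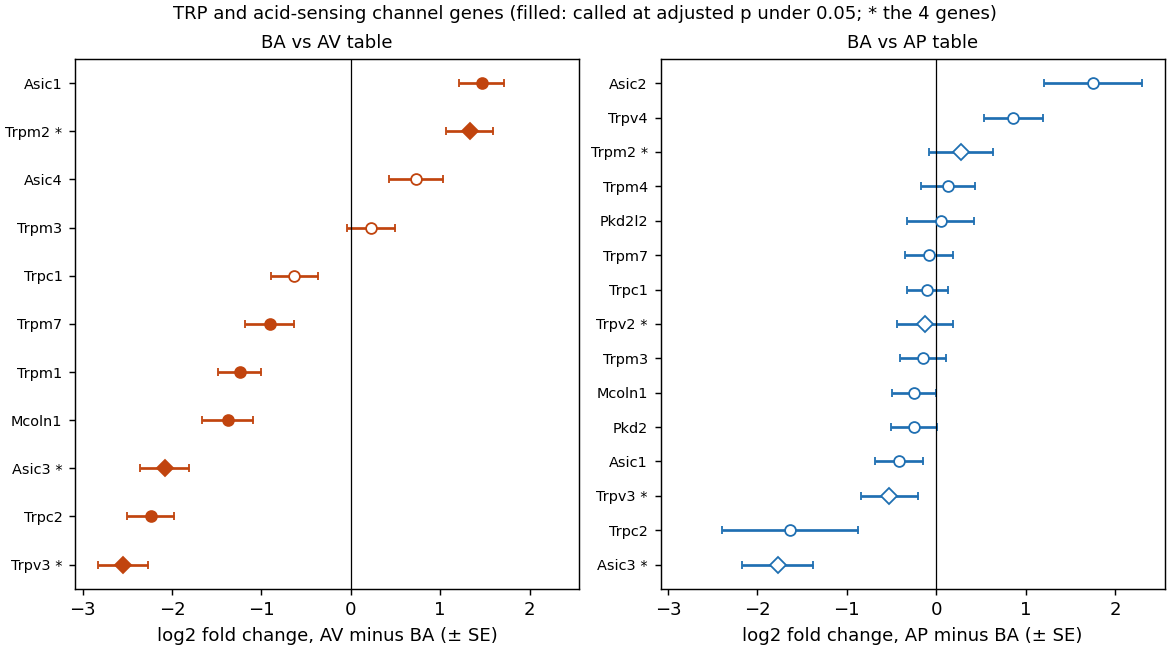
Log2 fold change against BA (x axis, bars are SE) of Trpv2, Trpv3, Trpm2 and Asic3 (diamonds, starred names) and of the other TRP and acid-sensing channel genes (circles), in AV mice (left) and AP mice (right); filled symbols passed limma's adjusted threshold of 0.05. Values run from −2.55 (Trpv3) to 1.46 (Asic1) on the left, and on the right no symbol is filled, with Asic3 at −1.77 and Asic2 at 1.75 at the ends.

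Genes that act on or with these channels were counted in 4 lists. Of 13 receptors through which inflammatory mediators act, 2 were analysed. Il1rap, the interleukin-1 receptor accessory protein gene, fell in AV mice by 2.27 on the log2 scale (limma adjusted p = 0.00820), and the histamine receptor gene Hrh1 had 0.99 without passing (limma adjusted p = 0.0909). A list of 9 symbols, of which Adprs and Adprhl2 name the same gene, covered genes that make or remove ADP-ribose, which opens TRPM2. Of these genes, 5 were analysed in AV mice and 2 changed, beside 29.7% of all genes. Nudt9, whose product hydrolyses ADP-ribose, was higher by 0.82 on the log2 scale (limma adjusted p = 0.0313), and Adprhl2, a hydrolase that frees ADP-ribose from proteins, fell by 1.18 (limma adjusted p = 0.0401).

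Among 14 partner genes, for calmodulins, IP3 receptors, STIM and ORAI proteins and ASIC-binding proteins, 12 were analysed in AV mice and 6 changed, all higher, beside 13.6% of all genes higher and 16.2% lower. The largest increase was in the IP3 receptor gene Itpr1, at 2.61 on the log2 scale (limma adjusted p = 0.00308). Stom, the stomatin gene, whose product binds and inhibits ASIC3 channels, rose by 1.41 (limma adjusted p = 0.00616) in the mice in which Asic3 was lower. Stom is named after its value was seen in this comparison. Pick1, which binds other acid-sensing subunits, had −0.75 without passing. Of 4 proton-sensing receptor genes only Gpr4 was analysed there, with a log2 fold change of 0.45 and overlapping groups.

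In AP mice no gene of these 4 lists passed the adjusted threshold, with 2, 7, 13 and 2 of them analysed, beside 0.00846% of all genes. With so few genes passing, nothing is read from this count. The largest differences were 0.92 for Stom (limma adjusted p = 0.606) and −0.44 for Stim1 among the partners, −0.94 for Adprhl2 (limma adjusted p = 0.452) and 0.22 for Nudt9 in ADP-ribose metabolism, −0.27 for Hrh1 among the receptors, and 0.40 for Gpr4 and −0.12 for Gpr65 among proton-sensing receptors. Adprhl2, Parg, Pick1 and Stim1 were below every BA mouse in each AP mouse, where 12.1% of all genes had groups without overlap. In AV mice the same held for Adprhl2, Parg and Pick1, beside 58.9% of all genes. The BA mice are the same in both comparisons.

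Genes whose pattern over the mice was most like each channel gene were found by the root mean square difference of centred log2 profiles. Over the 5 mice of BA against AV, Trpv3 was nearest to Tgfbr3l (0.0864), Omp (0.112) and Pigb (0.148), Asic3 to Rhebl1 (0.0523), Dnah3 (0.130) and Elmod2 (0.165), and Trpm2 was close to Vti1b (0.0471) and Lrp8 (0.0591). Within 0.3 of each, of 9871 genes compared, were 27 genes for Trpv3, 70 for Asic3 and 478 for Trpm2, so the pattern of Trpm2 was a common one. Over the 6 mice of BA against AP, Asic3 had 5 genes within that distance of 11819, led by Sfrp4 (0.119), Gm18955 (0.267) and Hhatl (0.269). Trpm2 had 159, led by Il17ra, Nfkb2 and Ube2f (0.142 to 0.160), Trpv3 810, led by Mettl2, Nectin1 and Zfp182 (0.0810 to 0.0964), and Trpv2 966, led by Tyk2, Zkscan5 and Zbtb48 (0.0784 to 0.0898). Members of a list found this way share libraries and scaling, and no test is attached to them.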

How the data were processed

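RNA of YFP-positive cells sorted from the amygdala of single mice was sequenced from ultra-low input, stranded libraries. The submitters' processing notes name bcl2fastq 2.20, Salmon 1.2 and GRCm38.p6. The authors deposited a normalized signal per gene and mouse, after TMM scaling, a filter on low counts and, per the methods, ARSyN batch correction. The methods do not say whether this correction was applied to 1 of the deposited tables or to both. Between 79.4% and 89.0% of the low BA vs AP values lay on whole reads (within 0.02 reads), so no count test was run. Signal summed to between 3.27e+06 and 5.07e+06 per mouse, and steps gave 3.82e+06 to 6.72e+06 reads in the BA vs AP table.

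Each table was fitted alone on log2(value + 1) with limma 3.58.1 in R 4.3.3 over all its genes, with Benjamini-Hochberg adjustment at 0.05, in place of the study's NOISeqBIO test, which was not run. The fit was tested on simulated data. Symbols, coordinates and exon lengths came from GENCODE M21 (GRCm38). The 4 genes and all lists were chosen with earlier results of these data known. Besides the 4 genes and their neighbours, the text names family genes that passed, the 3 largest family changes in each direction, the largest change of each other list in each direction, and the 3 most similar genes, of which 1 is not reported here. Alternatives were pseudocounts of 0.5 and 5, a mean minimum of 10, the floor subtracted, median centring, limma-trend, a replicate block and each mouse left out. Sequences of the channel proteins were not analysed here.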

Additional observations from a re-analysis of the deposited data

How the results depend on the processing

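Over 85 alternative values of the 4 channel genes, 82 kept their direction and their side of the threshold. The alternatives planned for Trpv2 in BA against AV gave no value, since that gene was not analysed there. Without BA replicate 1, Trpv2 in BA against AP turned to 0.19 on the log2 scale, and the values with each mouse left out ran from −0.34 to 0.19. Without AP replicate 1, Trpm2 in BA against AP turned to −0.087, within a range of −0.087 to 0.65. The count of other TRP and acid-sensing channel genes that passed in BA against AV ran from 3 to 7 with each mouse left out. Without 1 AV mouse, the remaining one was assumed to vary like the BA mice. In BA against AP this count was 0 under every alternative run. An unadjusted limma p under 0.05 was counted in the main fit alone, for 2 of these genes. For Asic3 in BA against AV, the other settings gave −2.24 to −1.38, since its AV values lie near the lowest values of the table and move with the pseudocount.

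With the replicate number as a block, Trpm2 in BA against AV was 1.15 on the log2 scale and no longer counted among the genes that passed, and 1 of the 8 other channel genes passed, Trpc2. BA replicate 2 has no AV partner and adds nothing to that estimate. All calls fell from 2934 to 970 under the block. Deviations of mice with the same number correlated over genes at −0.060 and −0.039 between BA and AV. There the deviations of the AV mice mirror each other, so these values cannot show whether the numbers pair the mice. Between BA and AP they correlated at 0.020, 0.12 and 0.081, against −0.117 to 0.0136 for mice with different numbers. These correlations are weak, and whether the numbers pair the mice was not settled. No other call changed under the block for the 4 channel genes. Depth limits Asic3 most, with at most 17 reads in any mouse compared with AP, and no read depth is known for the comparison with AV. The cause of these changes was not tested.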
